A study of Homo sapiens with 12 samples.

Results

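Messenger RNA of 10 genes was followed through 12 RNA-seq libraries: JUN, JUNB, JUND, FOS, FOSB, FOSL1 and FOSL2, which encode the subunits of the transcription factor AP-1, and the early response genes EGR1, IER2 and IER3. They were selected by gene symbol and are 10 of the 26535 features in the deposited tables. All 10 passed the filter on low counts. The libraries came from A549, a lung adenocarcinoma line, and NCI-H1299 (H1299), a large-cell lung carcinoma line; both are established human lines with the genotype WT in the labels. Each line carried a lentivirus for overexpression of VGF, a gene for a secreted neuroendocrine precursor protein, or the empty lentiviral vector. This gave 4 groups of 3 libraries, described in the design text as biologically independent: A549 VGF, A549 empty vector, H1299 VGF and H1299 empty vector. Whether the transduced cells were selected or cloned is not stated. A549 cells grew in DMEM/F12 and H1299 cells in RPMI-1640, so line and medium cannot be told apart. The choice of genes followed from the A549 comparison, in which JUN and JUNB had been found higher with VGF, so their values in A549 are given as a description and no test is read from them.

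AP-1 is a dimer of basic leucine zipper proteins. JUN proteins can pair with each other or with FOS proteins, whereas FOS proteins need a JUN partner to bind DNA. Several of these genes are immediate early genes, whose transcription rises within minutes of a growth factor, stress or serum signal and then fades. Such signals reach FOS and EGR1 through MAP kinases, serum response factor and its cofactors, and reach JUN through the JUN kinases and through AP-1 itself. FOSL1 and FOSL2 lack the activation domain found in FOS and FOSB and are often the lasting FOS proteins of carcinoma lines.

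VGF itself was at 1361, 1201 and 1287 CPM, counts scaled to a common library size, in A549 VGF libraries, against 2.74, 2.54 and 2.01 CPM in A549 empty vector libraries. In H1299 it was at 886, 941 and 1114 CPM with VGF, against 77.2, 90.5 and 89.0 CPM with empty vector. Library totals were 31378171 to 41919484 counts. The epithelial keratins KRT8 and KRT18 had at least 18157 counts in every library. The keratin KRT7 had at least 34824 counts in every A549 library and at most 90 in any H1299 library. KRT19 had at least 92 counts in every A549 library and at most 53 in any H1299 library. The epithelial cadherin CDH1 was at 0 counts in every H1299 library, and EPCAM had at most 36 counts in any library. A549 VGF library 2 stood apart through 12 endothelial markers, which summed to 468 CPM there, 86.0 and 92.8 CPM in the other A549 VGF libraries, 75.6 to 88.1 CPM in A549 empty vector libraries and 24.6 to 30.9 CPM in H1299 libraries. The endothelial genes PECAM1, CDH5 and VWF had 3305, 3387 and 1559 counts in A549 VGF library 2, against at most 61, 21 and 17 counts in any other A549 library. The markers ESAM and EGFL7 had at least 928 and 1383 counts in every A549 library, so the sums outside library 2 hold these genes.

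Sequences just upstream of the gene starts were taken from RefSeq (GRCh38.p14), where 8 of the 10 genes matched by symbol. FOSL1 and IER3 are named only. The 3 stretches of 250 bases are shown as examples of windows with a CArG box (EGR1), a TATA element (JUNB) and a cyclic AMP element (JUND), and nothing is drawn from them about the response to VGF. EGR1 is chr5:138465229-138465478 on the plus strand, JUNB is chr19:12791236-12791485 on the plus strand and JUND is chr19:18281623-18281872 on the minus strand. Capitals mark matches to the motifs named in the next paragraph except GGGCGG.
EGR1: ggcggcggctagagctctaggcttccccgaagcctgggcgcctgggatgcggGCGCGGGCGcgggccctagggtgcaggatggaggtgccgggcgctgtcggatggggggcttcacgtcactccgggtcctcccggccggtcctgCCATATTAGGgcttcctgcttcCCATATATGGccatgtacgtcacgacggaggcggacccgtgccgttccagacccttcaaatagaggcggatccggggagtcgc
JUNB: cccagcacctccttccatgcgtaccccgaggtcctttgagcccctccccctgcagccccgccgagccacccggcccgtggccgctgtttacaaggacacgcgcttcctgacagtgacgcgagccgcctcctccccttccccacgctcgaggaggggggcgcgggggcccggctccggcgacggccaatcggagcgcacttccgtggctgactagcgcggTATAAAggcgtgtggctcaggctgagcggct
JUND: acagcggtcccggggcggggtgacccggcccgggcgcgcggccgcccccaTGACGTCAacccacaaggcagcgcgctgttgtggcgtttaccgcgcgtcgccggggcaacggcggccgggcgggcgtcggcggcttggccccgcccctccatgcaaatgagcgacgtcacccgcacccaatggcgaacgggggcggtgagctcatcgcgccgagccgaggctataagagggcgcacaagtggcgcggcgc

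The search covered both strands for the CArG box (the serum response factor element, found in 1.16% of 35116 promoter windows), the AP-1 element TGANTCA (6.57%), the cyclic AMP element TGACGTCA (1.65%), the AP-1-like octamer TGACATCA (2.37%), the EGR element GCGNGGGCG (8.41%), the TATA element TATAAA (10.7%) and the GC box GGGCGG (42.6%). EGR1 held 2 CArG boxes, at positions -105 to -96 and -83 to -74 counted back from the RefSeq start, and an EGR element at -198 to -190. JUN held TGACATCA at -67 to -60. JUND held TGACGTCA at -200 to -193. JUNB, FOS and FOSB held TATAAA, at -31 to -26 in JUNB, -33 to -28 in FOS and -30 to -25 in FOSB. GGGCGG matched in JUN, JUND, FOS, FOSB, FOSL2 and IER2, and TGANTCA matched in none of the 8 windows. The motifs do not overlap each other in these windows, and a match is a description of the letters only. The RefSeq start of JUN lies 280 bases, that of FOS 54 bases and that of FOSL2 410 bases inside the GENCODE gene, so their sequences are not shown.

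In A549, JUN and JUNB transcripts were higher with VGF. In bulk RNA, more cells expressing a gene and more RNA per cell cannot be told apart. JUN (ENSG00000177606, GRCh38 chromosome 1, 58780788 to 58784327, minus strand), the subunit that can form AP-1 alone, was at 68.1, 78.9 and 112 CPM in A549 VGF libraries, against 53.8, 47.1 and 44.3 CPM in A549 empty vector libraries. JUNB (ENSG00000171223, chromosome 19, 12791496 to 12793315, plus strand), a JUN protein that is a weaker activator, was at 95.3, 94.9 and 136 CPM with VGF, against 69.3, 62.7 and 62.4 CPM with empty vector. All 3 VGF libraries lay above all 3 empty vector libraries for both genes, and VGF library 3 was highest for both. The log2 fold change was 0.84 (SE 0.149) for JUN and 0.75 (SE 0.146) for JUNB. JUND (ENSG00000130522, chromosome 19, 18279760 to 18281622, minus strand), the JUN gene that is commonly expressed in resting cells, was at 39.4, 40.3 and 34.3 CPM with VGF, against 36.2, 29.3 and 25.0 CPM with empty vector, and its groups overlapped (log2 fold change 0.33, SE 0.124).

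The FOS family was uneven in A549. FOS (ENSG00000170345, chromosome 14, 75278774 to 75282230, plus strand), the classic partner of JUN, was at 31.7, 35.9 and 135 CPM in A549 VGF libraries, against 19.8, 21.0 and 26.4 CPM in A549 empty vector libraries. The groups did not overlap, and VGF library 3 stood far above the other 5 A549 libraries. The log2 fold change was 1.60 (SE 0.46) over all libraries and 0.60 (SE 0.257) without VGF library 3. FOSB (ENSG00000125740, chromosome 19, 45467995 to 45475179, plus strand), a close relative of FOS, was low in all A549 libraries, at 0.27, 0.66 and 1.73 CPM with VGF, against 0.47, 0.69 and 0.54 CPM with empty vector. FOSL1 (ENSG00000175592, chromosome 11, 65892049 to 65900573, minus strand), which encodes FRA1, was at 20.3, 31.8 and 24.3 CPM with VGF, against 28.5, 25.2 and 18.8 CPM with empty vector. FOSL2 (ENSG00000075426, chromosome 2, 28392448 to 28417312, plus strand), which encodes FRA2, was at 186, 155 and 165 CPM with VGF, against 160.3, 162 and 174 CPM with empty vector. The groups overlapped for all 3, with log2 fold changes of 0.66 (SE 0.542) for FOSB, 0.08 (SE 0.157) for FOSL1 and 0.03 (SE 0.0623) for FOSL2.

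EGR1 (ENSG00000120738, chromosome 5, 138465490 to 138469315, plus strand), a zinc finger factor and textbook immediate early gene, had the widest spread of the 10 genes relative to its mean in A549 VGF libraries. It had 78, 130 and 1896 counts in A549 VGF libraries, against 51, 64 and 42 counts in A549 empty vector libraries. On the CPM scale these were 2.67, 3.32 and 54.5 with VGF, against 1.48, 1.91 and 1.26 with empty vector, so the groups did not overlap while library 3 set the size of the difference. The log2 fold change was 3.70 (SE 0.951) over all libraries. Without VGF library 3 it was 0.95 (SE 0.191).

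IER2 (ENSG00000160888, chromosome 19, 13150415 to 13154908, plus strand), an immediate early nuclear protein, was at 91.7, 94.1 and 144 CPM in A549 VGF libraries, against 96.6, 87.1 and 85.1 CPM in A549 empty vector libraries. IER3 (ENSG00000137331, chromosome 6, 30743199 to 30744554, minus strand), an early response gene linked to survival signalling, was at 185, 209 and 236 CPM with VGF, against 196, 182 and 190.1 CPM with empty vector. Both genes overlapped between the groups, with VGF library 3 again highest. Of the exonic bases, 30.8% in IER2, 26.5% in IER3 and 14.2% in JUNB lie opposite an exon of another gene (AC011446.2, IER3-AS1 and HOOK2), and whether strand was used in counting is not given in the sources used here, so reads of the 2 strands may be mixed there.

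Across the members, the A549 comparison called 2 of 10 genes, JUN and JUNB, at an adjusted p under 0.05 in edgeR's quasi-likelihood test, beside 0.79% of all 18228 features tested. The libraries did not overlap for 4 of 10 members, all higher with VGF (JUN, JUNB, FOS and EGR1), beside 9.28% of all features. The median log2 fold change was 0.50 over the 10 genes and 0 over all features. Since this comparison chose the genes, nothing is read from these counts. JUN was not called when any 1 of the 3 A549 empty vector libraries was left out, with log2 fold changes of 0.78 to 0.92. JUNB was not called without any 1 of those libraries, nor without A549 VGF library 3, where its log2 fold change was 0.55. Its call was also lost without any 1 of the 3 H1299 empty vector libraries or H1299 VGF library 2, where its log2 fold change remained 0.75. EGR1 was called without VGF library 1 or without VGF library 2, at 4.21 in each case. Without VGF library 2, which carried the endothelial transcripts, both JUN and JUNB were called and the log2 fold changes were 0.90 for JUN and 0.84 for JUNB.

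**Figure D1:**
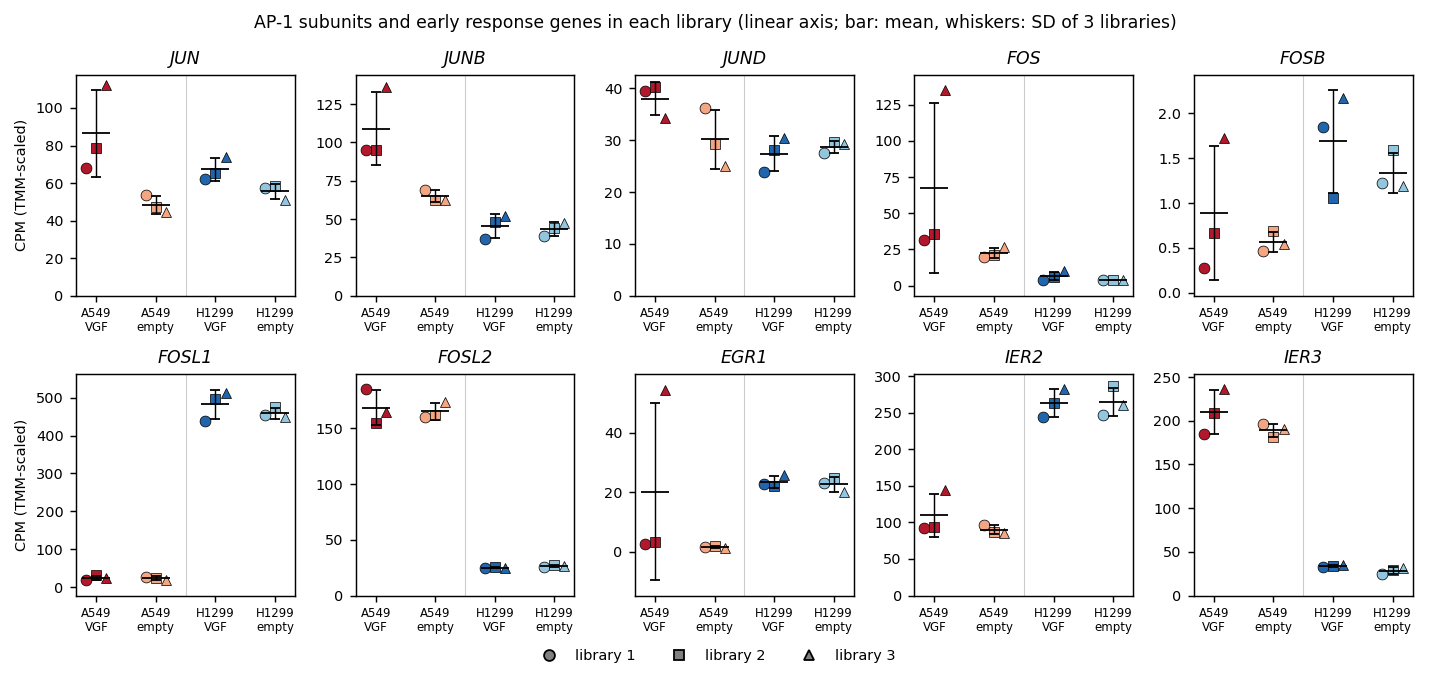
CPM of each gene in each library on a linear axis, with symbols for library number, bars for the mean and whiskers for the SD of 3 libraries. In A549 the VGF libraries of JUN, JUNB, FOS and EGR1 lie above the empty vector libraries, and VGF library 3 (triangle) is far above the rest for FOS at 135 CPM and for EGR1 at 54.5 CPM.

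A549 VGF library 3 was the highest of the 6 A549 libraries for 6 of the 9 members that averaged over 1 CPM in the line, beside 14.2% of 13813 features. Relative to the mean of the other 2 VGF libraries it was higher by 4.17 on the log2 scale for EGR1, 2.00 for FOS, 1.88 for FOSB, 0.62 for JUN, 0.63 for IER2 and 0.52 for JUNB. It was lower for JUND, at -0.22. EGR1 ranked 8th on this measure among the 14535 features that averaged at least 1 CPM over the 12 libraries. EGR2, a relative of EGR1 that was singled out after its values were seen, had 27 counts in library 3, 0 in both other VGF libraries, and 0, 2 and 0 in the empty vector libraries. The same library was highest for 12 of 29 other early response genes, 4 of 16 AP-1 targets and 0 of 10 heat shock genes. VGF library 2, which carried the endothelial transcripts, was the highest for 8 of the 16 AP-1 targets, beside 22.1% of the 13813 features. Library 3 had 92.8 CPM of endothelial markers, near the other A549 libraries except library 2. What set library 3 apart was not tested.

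In H1299, a comparison that did not choose the genes, 0 of the 10 were called with VGF by edgeR's quasi-likelihood test, beside 0.011% of all features (2 of 18228). DESeq2 called 139 features and 0 of the members. At an unadjusted p under 0.05 in the edgeR fit of all 12 libraries, 1 of 10 members passed, IER3, beside 7.8% of all features.

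JUN was at 62.4, 65.3 and 74.2 CPM in H1299 VGF libraries, against 57.3, 58.5 and 51.2 CPM in H1299 empty vector libraries. IER3 was at 32.1, 34.3 and 34.4 CPM with VGF, against 24.7, 28.7 and 32.0 CPM with empty vector. FOSL2 was at 24.7, 25.4 and 24.5 CPM with VGF, against 25.8, 27.4 and 26.1 CPM with empty vector. The libraries of these 3 genes did not overlap, JUN and IER3 being above and FOSL2 below the empty vector libraries, beside 5.65% of all features above and 7.07% below. The log2 fold change was 0.27 for JUN (SE 0.147, 95% interval -0.05 to 0.59, adjusted p = 0.717), 0.24 for IER3 (SE 0.0975, 0.03 to 0.45, adjusted p = 0.598) and -0.09 for FOSL2 (SE 0.0669, -0.23 to 0.06, adjusted p = 0.866) in edgeR's quasi-likelihood test.

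The other members overlapped between the H1299 groups. FOS was at 4.04, 6.07 and 9.71 CPM in H1299 VGF libraries, against 4.08, 3.49 and 3.84 CPM in H1299 empty vector libraries. Its log2 fold change was 0.80 (SE 0.528, 95% interval -0.35 to 1.94, edgeR adjusted p = 0.805). In a fit of H1299 alone, FOS was at 0.80 with a smaller SE of 0.26. JUN was at 0.28 with an SE of 0.0717 in that fit, and neither gene was called. The intervals of both genes thus depend on the spread shared with A549. EGR1 was at 22.8, 22.0 and 25.8 CPM with VGF, against 23.2, 24.8 and 20.03 CPM with empty vector. Its log2 fold change was 0.05 (SE 0.768, 95% interval -1.61 to 1.72) in the fit that shares its estimate of spread with A549. In a fit of H1299 alone it was 0.06 with an SE of 0.0916. JUNB was at 37.0, 48.2 and 51.9 CPM with VGF, against 39.0, 44.2 and 47.5 CPM with empty vector, with a log2 fold change of 0.07 (95% interval -0.25 to 0.39).

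JUND was at 23.8, 28.1 and 30.4 CPM in H1299 VGF libraries, against 27.5, 29.6 and 29.3 CPM in H1299 empty vector libraries. FOSB was at 1.85, 1.05 and 2.17 CPM with VGF, against 1.23, 1.59 and 1.19 CPM with empty vector. FOSL1, the most abundant AP-1 transcript of this line, was at 437, 497 and 511 CPM with VGF, against 453, 474 and 448 CPM with empty vector. The 95% interval of its log2 fold change of 0.07 was -0.23 to 0.38. IER2 was at 244, 263 and 282 CPM with VGF, against 247, 286 and 261 CPM with empty vector, with a log2 fold change of -0.01 (95% interval -0.30 to 0.29).

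H1299 VGF library 3 was the highest of the 6 H1299 libraries for 8 of 10 members, beside 19.0% of 13645 features. Among other lists it was the highest for 8 of 15 genes listed as AP-1 targets, 7 of 27 other early response genes and 3 of 10 heat shock genes. VGF library 2 was the highest for 9 of the 27 early response genes, beside 15.1% of the 13645 features.

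**Figure D2:**
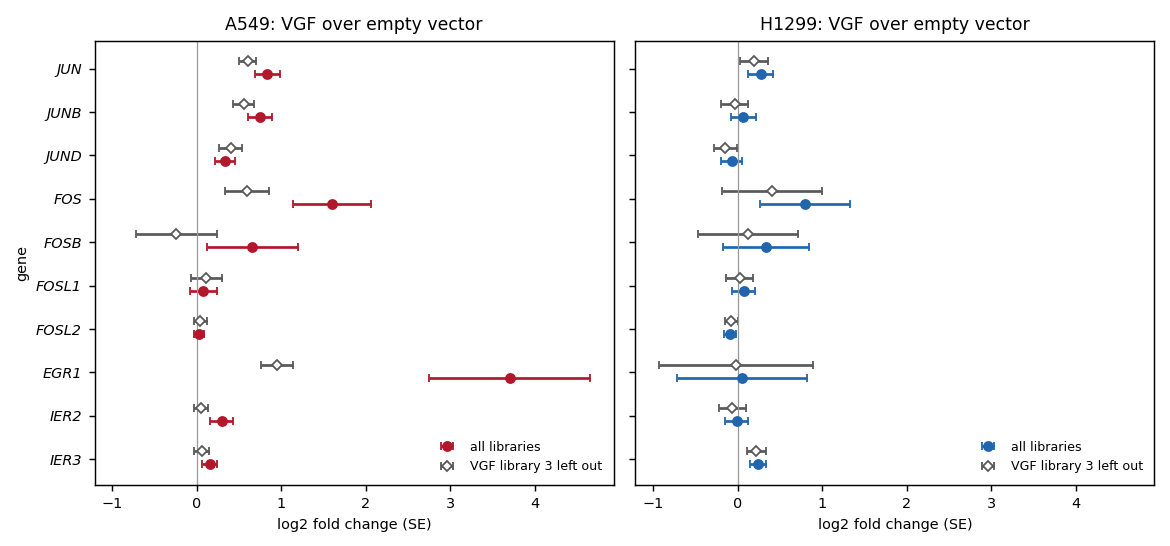
Log2 fold change of each gene, VGF over empty vector, in A549 (left) and H1299 (right), with whiskers for the SE. Filled circles use all libraries and open diamonds leave out VGF library 3 of the line shown: in A549 EGR1 is at 3.70 with it and 0.95 without it, while JUN stays at 0.60 or above.

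The difference between the VGF effects (H1299 minus A549) was called for 0 of the 10 genes by edgeR, beside 0.159% of all features, and it contains the A549 comparison that chose them. At an unadjusted p under 0.05, 4 of 10 members passed, beside 11.2% of all features. DESeq2 called 310 features, against 29 in edgeR, and 1 of them was a member, JUNB. The differences in log2 fold change were -0.56 for JUN (SE 0.209), -0.68 for JUNB (SE 0.207), -0.40 for JUND (SE 0.175) and -3.65 for EGR1 (SE 1.22). For FOS it was -0.80 (SE 0.697). Without A549 VGF library 3 the difference was -0.90 for EGR1 (SE 0.235), -0.33 for JUN (SE 0.137), -0.49 for JUNB (SE 0.164), -0.47 for JUND (SE 0.182) and 0.20 for FOS (SE 0.363).

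Per transcript length, the shares of the AP-1 transcripts differed between the 2 lines, although all 7 were detected in both. FPKM, which scales for gene length and library size, allows levels of genes to be compared. FOSL1 made up 82.8% ± 0.966 of the summed FPKM of the 7 AP-1 genes in H1299 VGF libraries and 83.1% ± 0.592 in H1299 empty vector libraries, against 9.71% ± 3.25 in A549 VGF libraries and 13.6% ± 2.41 in A549 empty vector libraries (SD, n = 3 each). The 3 JUN genes together held 15.2% ± 0.727 in H1299 VGF libraries and 15.1% ± 0.554 in H1299 empty vector libraries, against 58.5% ± 4.88 in A549 VGF libraries and 55.6% ± 2.13 in A549 empty vector libraries. In A549 no gene dominated: JUNB had the largest mean share, 33.2% ± 1.67 with VGF and 30.3% ± 0.226 with empty vector. FOS ranged from 10.3% to 29.5% over the A549 VGF libraries, against 7.70% to 12.1% over the A549 empty vector libraries.

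The summed FPKM of the 7 genes was 360, 397 and 411 in H1299 VGF libraries and 365, 376 and 366 in H1299 empty vector libraries, against 132, 139 and 205 in A549 VGF libraries and 111, 101 and 99.4 in A549 empty vector libraries. Every H1299 library lay above every A549 library on this sum. The JUN genes summed to 51.9 to 65.2 FPKM in H1299 VGF libraries and 53.2 to 57.3 FPKM in H1299 empty vector libraries, against 81.8 to 109 FPKM in A549 VGF libraries and 53.2 to 63.9 FPKM in A549 empty vector libraries. For these genes FPKM placed H1299 higher relative to A549 than the scaled counts did. With empty vector, the log2 fold change of JUN was 0.38 on log2(FPKM + 1) and 0.20 on counts. For JUNB the values were -0.36 and -0.57, and for JUND 0.14 and -0.07.

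In H1299 with VGF the FPKM means ran from FOSL1 at 322 ± 18.5 through IER2 at 92.2 ± 3.77, IER3 at 25.9 ± 0.847, JUNB at 25.3 ± 3.97, JUN at 19.2 ± 1.44, JUND at 14.8 ± 1.59, EGR1 at 7.55 ± 0.541, FOSL2 at 3.77 ± 0.117 and FOS at 3.49 ± 1.497 to FOSB at 0.445 ± 0.146 (SD, n = 3). With empty vector they ran from FOSL1 at 307 ± 5.52 and IER2 at 92.6 ± 6.73 through JUNB at 24.2 ± 2.41, IER3 at 21.9 ± 2.56, JUN at 15.9 ± 1.03, JUND at 15.6 ± 0.584, EGR1 at 7.31 ± 0.737, FOSL2 at 4.09 ± 0.188 and FOS at 1.88 ± 0.158 to FOSB at 0.386 ± 0.111. IER3 and JUNB were within 1 SD of each other in both H1299 groups, as were FOSL2 and FOS with VGF and JUN and JUND with empty vector.

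In A549 with VGF the FPKM means ran from IER3 at 141 ± 11.7 through JUNB at 52.3 ± 11.03, IER2 at 33.6 ± 9.17, FOS at 29.9 ± 26.5, FOSL2 at 22.1 ± 2.18, JUN at 21.3 ± 5.52, JUND at 17.9 ± 1.64, FOSL1 at 14.8 ± 3.32 and EGR1 at 5.58 ± 8.23 to FOSB at 0.225 ± 0.212 (SD, n = 3). With empty vector they ran from IER3 at 126 ± 7.11 through JUNB at 31.4 ± 1.87, IER2 at 27.5 ± 1.61, FOSL2 at 21.9 ± 1.20, JUND at 14.2 ± 2.64, FOSL1 at 14.1 ± 3.12, JUN at 12.04 ± 1.19, FOS at 9.76 ± 1.94 and EGR1 at 0.434 ± 0.0915 to FOSB at 0.129 ± 0.0230. With VGF, each neighbouring pair from IER2 down to FOSL1 (IER2, FOS, FOSL2, JUN, JUND and FOSL1) differed by less than the larger SD of the pair, so their order is not set. FOS there was at 13.6 and 15.7 FPKM in libraries 1 and 2 and 60.5 FPKM in library 3. With empty vector, JUND, FOSL1 and JUN were likewise not separated.

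**Figure D3:**
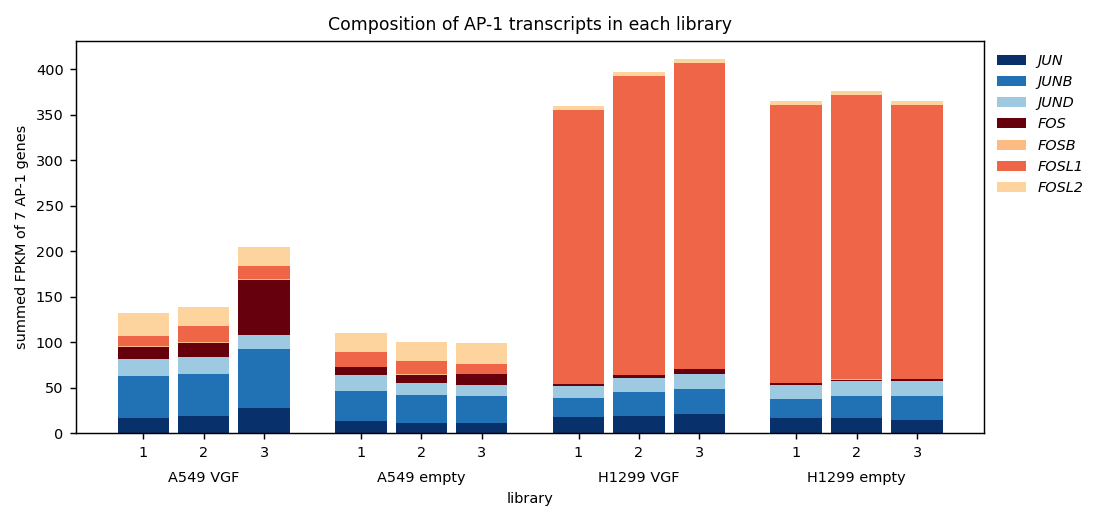
Summed FPKM of the 7 AP-1 genes in each library, stacked by gene. FOSL1 fills 81.9% to 83.8% of each H1299 VGF bar and 6.88% to 13.3% of each A549 VGF bar, and the tall A549 VGF bar 3 carries 29.5% FOS.

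Between the lines with empty vector, 7 of 10 members were called by edgeR, close to the 77.2% of all features called in this comparison, so the number called says nothing about these genes as a group. FOSL1 was higher in H1299 empty vector libraries, at 458 ± 13.8 CPM, than in A549 empty vector libraries, at 24.2 ± 4.94 CPM (SD, n = 3; log2 fold change 4.24, SE 0.164, adjusted p = 6.63e-11). IER2 was higher too, at 265 ± 19.7 CPM in H1299 and 89.6 ± 6.15 CPM in A549 (1.56, SE 0.141, adjusted p = 3.28e-07), as was EGR1, at 22.7 ± 2.42 CPM in H1299 and 1.55 ± 0.329 CPM in A549 (3.87, SE 0.951, adjusted p = 0.00236). Without A549 VGF library 3, which enters the shared estimate of spread but not this comparison, EGR1 remained at 3.87 with an SE of 0.167. The log2 fold change exceeded that of FOSL1 in size for 16.4% of all features and that of EGR1 for 17.6%.

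FOSL2, the other FRA gene, differed the opposite way to FOSL1, at 26.4 ± 0.850 CPM in H1299 and 165 ± 7.45 CPM in A549 empty vector libraries (log2 fold change -2.65, SE 0.0675, edgeR adjusted p = 1.47e-12). IER3 was at 28.5 ± 3.65 CPM in H1299 and 189 ± 7.31 CPM in A549 (-2.73, SE 0.0997, edgeR adjusted p = 3.78e-11). FOS was at 3.80 ± 0.295 CPM in H1299 and 22.4 ± 3.51 CPM in A549 (-2.56, SE 0.515, edgeR adjusted p = 0.000542), and JUNB at 43.6 ± 4.28 CPM in H1299 and 64.8 ± 3.90 CPM in A549 (-0.57, SE 0.147, edgeR adjusted p = 0.00321). Without A549 VGF library 3, FOS was at -2.55 with an SE of 0.255. JUN (0.20, 95% interval -0.12 to 0.53), JUND (-0.07, -0.34 to 0.20) and FOSB (1.24, 0.07 to 2.40, edgeR adjusted p = 0.0503) were not called. FOSB was called without any 1 of the 3 A549 VGF libraries, at 1.24 to 1.25.

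With the VGF virus, 8 of 10 members were called between the lines, beside 77.3% of all features. This comparison contains the A549 VGF libraries that led to the choice of the genes. Its values for JUN and JUNB are therefore a description, and no test is read from them. FOSL1 (log2 fold change 4.24) and IER2 (1.26) were higher in H1299, and JUN (-0.36, edgeR adjusted p = 0.0385), JUNB (-1.25), JUND (-0.47), FOS (-3.35), FOSL2 (-2.76) and IER3 (-2.65) were lower in H1299. EGR1 was not called (0.22, SE 0.773, adjusted p = 0.805), with 23.5 ± 2.01 CPM in H1299 VGF libraries and 20.2 ± 29.8 CPM in A549 VGF libraries (SD, n = 3). Without A549 VGF library 3 its log2 fold change was 2.97 and it was called, as was FOSB at 1.82, while JUN at -0.13 was not. The JUN call was also lost without A549 empty vector library 2, H1299 empty vector library 1, H1299 VGF library 1 or H1299 VGF library 2. JUN and JUND were not called on the FPKM scales, where JUND was at -0.25 with log2(FPKM + 1) and -0.27 with log2(FPKM + 0.1).

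**Figure D4:**
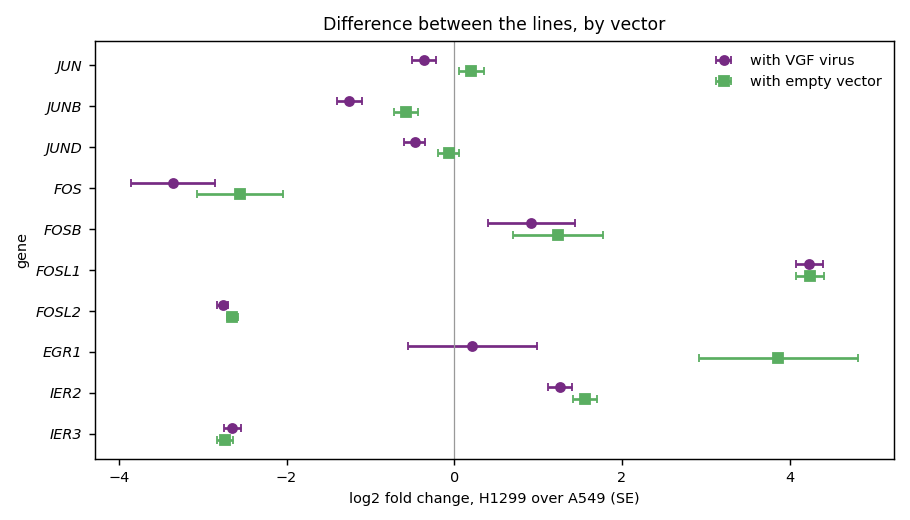
Log2 fold change of each gene in H1299 over A549, with VGF virus (circles) and with empty vector (squares), whiskers showing the SE. FOSL1 lies near 4.24 and FOSL2 near -2.7 with either vector, whereas EGR1 lies at 0.22 with VGF virus and 3.87 with empty vector.

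Genes with patterns most like JUN and JUNB were ranked by Pearson's r of log2 CPM, centred within each line, over the 12 libraries and 11837 features. The values are a description, since all features share libraries and the split by vector. Those closest to JUN were AMIGO2 (r = 0.932), an adhesion protein, RHOB (0.928), a small GTPase, and DUSP1 (0.928), a phosphatase of MAP kinases. For JUNB they were AMIGO2 (0.926), POLA2 (0.920), a subunit of DNA polymerase alpha, and POGK (0.910). JUNB ranked 8th for JUN (0.902), FOS 11th (0.880), EGR1 21st (0.862) and IER2 56th (0.804), whereas FOSL1 (0.33) and FOSL2 (-0.22) were far down the list. DUSP1 was at 100.2, 103 and 184 CPM in A549 VGF libraries, against 64.8, 76.0 and 75.9 CPM in A549 empty vector libraries, with library 3 highest as for JUN.

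Of 31 other early response genes tested in A549, 3 were called higher with VGF, beside 0.406% of all features, and 0 lower, and the median log2 fold change was 0.19 against 0 over all features. RHOB was at 177, 199.7 and 248.98 CPM in A549 VGF libraries, against 122, 132 and 137 CPM in A549 empty vector libraries (log2 fold change 0.68, SE 0.112). KLF6, a zinc finger factor, was at 119, 124 and 121 CPM with VGF, against 102, 96.7 and 98.3 CPM with empty vector (0.29, SE 0.0449). KLF10, a related factor named because the count is small, was at 100.4, 94.3 and 122 CPM with VGF, against 76.4, 74.6 and 85.4 CPM with empty vector (0.42, SE 0.0881). The VGF libraries of all 3 lay above the empty vector libraries, and KLF6 did so with a similar value in each VGF library.

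Of 13 tested basic leucine zipper genes that pair or compete with AP-1, such as ATF3 and MAFK, 0 were called in A549 (median log2 fold change 0.06). Of 21 kinases, phosphatases and SRF cofactors upstream, 1 was called higher with VGF: ELK3, an ETS cofactor of serum response factor, at 83.6, 96.2 and 85.1 CPM in A549 VGF libraries, against 71.5, 71.7 and 75.4 CPM in A549 empty vector libraries (0.28, SE 0.0545). Of 19 genes known as AP-1 targets, 0 were called in A549, and their median log2 fold change was 0.02. Of 10 heat shock genes, 0 were called (-0.04). In H1299, 0 members of each of these lists were called by edgeR; the medians were 0.05 for early response genes, 0.01 for AP-1 partners, -0.01 for AP-1 targets and 0.16 for heat shock genes, against -0.01 over all features.

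Between the lines with empty vector, 14 of 19 AP-1 target genes were higher and 3 lower in H1299, beside 38.5% of all features higher and 38.6% lower. The receptor kinase AXL was at 1063 CPM in H1299 and 156 CPM in A549 empty vector libraries, and PLAUR, the urokinase receptor, at 281 CPM in H1299 and 26.0 CPM in A549 (mean of 3 libraries each). The integrin ITGA2 was lower in H1299, at 21.7 CPM against 79.9 CPM in A549, as was the chemokine CXCL8, at 0.0907 CPM in H1299 and 93.7 CPM in A549. Of 13 AP-1 partners, 1 was higher in H1299 and 9 were lower: JDP2, a repressor of AP-1, was at 29.6 CPM in H1299 and 12.2 CPM in A549, and MAFK at 46.2 CPM in H1299 and 172 CPM in A549. Of 31 early response genes, 8 were higher and 19 lower in H1299, and the median log2 fold change was -0.53 against 0.01 over all features. SRF, the serum response factor, was at 78.5 CPM in H1299 and 28.7 CPM in A549. RHOB went the other way, at 28.0, 32.0 and 29.5 CPM in H1299 and 122, 132 and 137 CPM in A549 empty vector libraries. Of 21 upstream genes, 9 were higher and 8 lower in H1299, DUSP6, a phosphatase of ERK, being at 129 CPM in H1299 and 22.9 CPM in A549.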

How the data were processed

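RNA-seq of messenger RNA gave 12 libraries, grouped by their titles and characteristics. A treatment note shared by all 12 mentions the empty vector alone and was set aside. The authors deposited whole-number counts per feature and FPKM values of the same features. GRCh38 and DESeq2 are named in the submitters' processing notes. The aligner, counting tool, annotation and strand setting were not given in the sources used here. From both deposited tables, 26535 features were kept, 18 stray lines were dropped and 27 symbols that had become dates were restored by ID. Coordinates are from GENCODE (GRCh38, counted from 1).

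The count test was edgeR 4.0.16 (R 4.3.3), quasi-likelihood F, on a model of 4 group means over the 12 libraries, with TMM factors, the filterByExpr filter and Benjamini-Hochberg adjustment over the 18228 features that passed. Residual degrees of freedom numbered 8, and the prior added 4.44. The threshold was an adjusted p of 0.05. SEs come from the F statistic and intervals are 95%. CPM uses the TMM-scaled library total, also in the sums of marker genes. On simulated counts for A549 the test recovered 60.8% of 97 features changed by 0.5 on the log2 scale and 90.3% of 103 changed by 1. For H1299 it recovered 56% and 91% of 100 each. The changed features were drawn from those above a minimum mean level, and no library was made to stand out. These shares are averages over features, so they do not apply to single genes with a wide spread, such as EGR1 and FOS. Alternatives were DESeq2 1.42.0, limma 3.58.1 on log2(FPKM + 1) or log2(FPKM + 0.1), other scalings, no filter, each line alone, a replicate block and leaving out each library.

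The 10 genes were always named, with up to 2 called genes per direction from each gene list and the 3 genes most like JUN and JUNB. The members and lists were chosen with earlier results of these data known.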

Additional observations from a re-analysis of the deposited data

How the results depend on the processing

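The line calls of FOSL1, FOSL2, IER2, IER3, JUNB and FOS with empty vector were kept under every alternative that gave a p; DESeq2 gave none for EGR1 in any comparison. In A549 the number of features called was 144 in the fit of all libraries, 729 with DESeq2 and 52 to 130 with a library left out, and the number of members called was 1 with log2(FPKM + 0.1) and 0 to 3 with a library left out. With log2(FPKM + 1) 81 features were higher and 127 lower in A549, beside 74 and 70. In H1299 the features called were 139 with DESeq2, 5 without the filter, 4 with H1299 alone or log2(FPKM + 1), and 1 to 4 with a library left out. For the difference between lines they were 310 with DESeq2, with 1 member called, and 18 to 36 with a library left out.

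The replicate numbers showed no pairing over 10321 features as a whole. Same-numbered libraries correlated at -0.084 to 0.0189 within a line and -0.0443 to 0.0506 across the lines. Whether handling shared by equal numbers touched a few genes cannot be told from these correlations. With the replicate block, 43 features and 0 members were called in A549, 1 feature in H1299 and 2 features for the difference.

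Small log2 fold changes changed sign. In H1299, EGR1 was -0.0153 with the block, and IER2 was 0.0012 with RLE scaling, 0.00117 with DESeq2 and 0.00116 with H1299 alone. For the difference between lines, FOSL1 was 0.00933 with upper-quartile scaling, 0.00425 with DESeq2 and with the block, 0.00512 with log2(FPKM + 1) and 0.000956 with log2(FPKM + 0.1). Between the lines with empty vector, JUND was 0.0398 with upper-quartile scaling, 0.141 with log2(FPKM + 1) and 0.15 with log2(FPKM + 0.1). Upper-quartile scaling itself moved the median of all features by 0.106 with empty vector and 0.122 with VGF virus. The cause of these sign changes was not tested.

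With a library left out, the log2 fold changes that changed sign ranged in A549 from -0.243 to 1.07 for FOSB, -0.116 to 0.216 for FOSL1 and -0.0473 to 0.083 for FOSL2. In H1299 they ranged from -0.032 to 0.201 for JUNB, -0.148 to 0.0239 for JUND, -0.0292 to 0.12 for EGR1 and -0.0609 to 0.0503 for IER2. The difference ranged from -1.19 to 0.2 for FOS, -0.735 to 0.582 for FOSB, -0.143 to 0.196 for FOSL1 and -0.00661 to 0.179 for IER3. Between the lines, JUND ranged from -0.186 to 0.0851 with empty vector and EGR1 from -0.294 to 2.97 with VGF virus. JUN between the lines with VGF virus was not called with upper-quartile scaling (-0.24), with the block (-0.35) or on the FPKM scales (-0.12 and -0.13), and with empty vector it was called on the FPKM scales (0.38 and 0.40). FOSB with empty vector was called with DESeq2 (1.24), with upper-quartile scaling (1.34) and on the FPKM scales (0.29 and 1.07).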
